A study of Mus musculus with 4 samples.

Results

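The surrogate light chain and the pre-B receptor signalling genes were followed here as 10 genes across 4 arrays of sorted mouse preproB cells. The genes were picked by name, with earlier results of these data known. Igll1, Vpreb1, Vpreb2 and Vpreb3 stand for the surrogate light chain and its relative, and Cd79a and Cd79b for the signalling pair of the receptor. Blnk, Syk, Btk and Blk stand for the adaptor and kinases below the receptor. All 10 were found, 9 under the listed name and Syk under its older symbol Sykb, among 31659 gene names on the array. They have 13 probes, and all 10 belong to the 19393 genes that could be tested.

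PreproB cells are an early stage of B-cell development. They were sorted from bone marrow as lineage-negative cells positive for B220 and CD43 and negative for BP1 and CD24. The EnhDel group (n = 2) came from C57BL/6 mice of 24 weeks with the genotype Enh(f/f);Mx1-Cre, in which the floxed enhancer 37 kb from Cebpa is deleted. Cebpa encodes the myeloid transcription factor C/EBPα. The control group (n = 2) came from Enh(f/f) C57BL/6 mice of 26 weeks (replicate 1) and 24 weeks (replicate 2), which keep the enhancer. All mice received 3 doses of pIpC, an RNA-like compound that makes cells release interferon. The sort was done 5 weeks afterwards. Mx1-Cre is switched on by interferon and acts in many cell types of the marrow and beyond, and only the EnhDel mice carried it, so loss of the enhancer and presence of Cre cannot be told apart. The labels do not say whether a sample is 1 mouse or a pool, so p-values cover just the variation among these 4 samples, which may be partly technical.

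In a developing B cell, a newly made immunoglobulin heavy chain is first paired with a surrogate light chain, built from λ5 (the product of Igll1) and VpreB (the product of Vpreb1 or Vpreb2). The complex sits with Ig-α and Ig-β, whose tails recruit the kinase Syk and Src-family kinases such as Blk. Syk then acts through the adaptor BLNK and the kinase Btk to drive the growth and further maturation of the cell.

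Igll1 and Vpreb1 are neighbouring genes on chromosome 16, and Vpreb2 lies elsewhere on the same chromosome. A pair of probe sequences is shown first, because they decide which transcripts the values stand for. Probe positions are in mouse build mm9, as in the file headers. The Igll1 probe lies at chr16:16861104-16861163 on the minus strand. The Vpreb2 probe lies at chr16:17981114-17981173 on the plus strand.
Igll1 probe: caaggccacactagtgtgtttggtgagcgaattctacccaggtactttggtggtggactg
Vpreb2 probe: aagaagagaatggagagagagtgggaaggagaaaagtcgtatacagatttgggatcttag
The array's annotation assigns the Vpreb2 probe to the transcripts of both Vpreb2 and Vpreb1, so signal from these near-identical paralogs cannot be told apart on it. The Vpreb1 probe, at chr16:16868559-16868618 on the minus strand, is assigned to Vpreb1 alone. Vpreb3 is measured at chr10:75412326-75412385 on the plus strand. Exon and UTR positions of the probes were not worked out, because no annotation of build mm9 was used here.

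The gene starts of the 3 surrogate light chain genes are shown next. Their probes gave nearly the same pattern over the arrays, but the Vpreb2 probe is also assigned to Vpreb1. Each window runs from 250 bases before to 50 bases after the start, in RefSeq's GRCm38.p6, written 5′ to 3′ on the strand of the gene. Igll1 spans chr16:16863936-16864235 on the minus strand, Vpreb1 chr16:16869206-16869505 on the minus strand and Vpreb2 chr16:17980315-17980614 on the plus strand. Capitals mark the E-box CAGGTG, on either strand, and, in Igll1, also a match to CCCNNGGG, a core letter pattern of sites for the early B-cell factor Ebf1.
Igll1 window: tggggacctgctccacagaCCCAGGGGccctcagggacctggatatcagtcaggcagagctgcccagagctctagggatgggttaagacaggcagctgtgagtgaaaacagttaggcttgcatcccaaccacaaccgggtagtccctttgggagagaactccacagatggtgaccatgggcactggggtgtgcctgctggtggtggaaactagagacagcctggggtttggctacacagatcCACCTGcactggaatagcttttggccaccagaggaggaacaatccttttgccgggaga
Vpreb1 window: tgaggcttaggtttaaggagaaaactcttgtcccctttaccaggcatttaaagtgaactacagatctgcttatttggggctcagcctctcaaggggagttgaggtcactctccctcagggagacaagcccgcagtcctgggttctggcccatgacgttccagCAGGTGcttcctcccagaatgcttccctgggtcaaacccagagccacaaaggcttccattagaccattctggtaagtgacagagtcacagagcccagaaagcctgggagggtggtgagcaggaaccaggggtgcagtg
Vpreb2 window: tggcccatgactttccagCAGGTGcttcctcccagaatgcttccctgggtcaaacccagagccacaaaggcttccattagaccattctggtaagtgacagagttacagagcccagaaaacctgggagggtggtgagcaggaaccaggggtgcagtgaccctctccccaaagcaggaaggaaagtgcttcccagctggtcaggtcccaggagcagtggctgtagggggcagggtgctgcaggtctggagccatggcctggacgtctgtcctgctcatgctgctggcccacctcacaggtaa
Positions 145 to 300 of the Vpreb1 window and positions 1 to 156 of the Vpreb2 window could be aligned over 156 bases, of which 153 were identical (98.1%), and that stretch holds the E-box of both genes. Windows were found for 8 of the 10 genes, 9 windows in all, since Syk had 2. Searching both strands, CAGGTG occurred in 6 of these 8 genes (Igll1, Vpreb1, Vpreb2, Cd79a, Blnk and Syk). Of all 32851 windows, each counted singly, 20.2% held it. Vpreb1 and Vpreb2 hold it in the stretch they share, so they are not separate cases. CCCNNGGG occurred in Igll1 only, against 13.7% of all windows. TTGCNNAA, a C/EBP-type pattern, occurred in none of the 8, against 10.8% of all windows. The motifs do not overlap in the Igll1 window, where the E-box starts 8 bases and CCCNNGGG 231 bases before the gene start. A match to letters is a description of these windows and not a bound site.

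Each array had 59.6% to 64.9% of 39429 probes well above background, which is Agilent's call that a spot is brighter than its surroundings, and all 4 arrays lay on 1 slide read in 1 scan. Signals below are Agilent's processed, background-corrected intensity, and differences are on a log2 scale after each array was divided by its 75th percentile (970 and 1039 on the EnhDel arrays, 1015 and 1138 on the control arrays). Replicates differed more in EnhDel than in control, with an SD of log2 differences over genes of 0.611 between the EnhDel arrays and 0.333 between the control arrays. Cebpa itself had signals of 125 and 287 on the EnhDel arrays, against 1271 and 927 on the control arrays. Its log2 difference was -2.42 ± 0.45 (SE) with an adjusted p of 0.248 in limma. Under normexp, another background correction, it was -1.40, but 6 spots with extreme local background distorted that setting on EnhDel replicate 1. With those backgrounds repaired it was -2.04. Without EnhDel replicate 1 it was -1.87, and without EnhDel replicate 2 it was -2.97. Sex-linked genes went against labels. Xist, which marks female cells, was well above background only on EnhDel replicate 2, labelled male, and not on control replicate 1, labelled female. The 4 Y-linked genes Ddx3y, Eif2s3y, Kdm5d and Uty were well above background on all 4 arrays, with lower signal on EnhDel replicate 2 than on the others. EnhDel replicate 2 thus had both Xist and Y-linked signal. Whether that sample holds RNA of both male and female cells was not tested. Xist had signals of 5.32 and 597 on the EnhDel arrays, against 4.95 and 3.99 on the control arrays. Ddx3y had 3624 and 1560 on the EnhDel arrays, against 3116 and 3474 on the control arrays, and Kdm5d had 38.0 and 14.0 on the EnhDel arrays, against 32.1 and 31.3 on the control arrays. EnhDel replicate 2 is also the array with the lowest surrogate light chain signal below. Results without each of these arrays are therefore given below.

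Among markers fixed for the gate, Ptprc (which encodes B220) and Spn (CD43) were well above background on all 4 arrays and Enpep (BP1) on none. Cd24a was well above background on all 4 arrays, with signals of 4386 and 1910 on the EnhDel arrays and 4779 and 6366 on the control arrays. Of the 8 B-lineage markers, the EnhDel arrays had 7 and 6 well above background, and the control arrays 7 and 8. Pax5, a defining B-lineage factor, reached that level on control replicate 2 alone. All 9 plasmacytoid dendritic cell markers on the array were well above background on every array. Their summed signal, in multiples of the array's 75th percentile, was 895 and 862 on the EnhDel arrays and 914 and 841 on the control arrays.

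The surrogate light chain genes and Vpreb3 had lower signal on both EnhDel arrays than on either control array. The differences were 8.29-fold to 10.6-fold, with wide intervals, and none passed the test over all genes. Igll1, which encodes λ5, had signals of 365 and 75.5 on the EnhDel arrays, against 1370 and 2600 on the control arrays. The groups did not overlap, and EnhDel replicate 2 was the lowest of the 4. The log2 difference was -3.41 ± 0.86 (SE, n = 2 each), or 10.6-fold lower with a 95% interval of 2.15-fold to 52.4-fold. limma gave an unadjusted p of 0.0139 and an adjusted p of 0.332.

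Vpreb1, which encodes the variable-like part of the surrogate light chain, had signals of 4710 and 889 on the EnhDel arrays, against 14283 and 23537 on the control arrays. The groups were again apart, with EnhDel replicate 2 lowest and control replicate 2 highest. The log2 difference was -3.07 ± 0.88 (95% interval -5.44 to -0.69), and limma's adjusted p was 0.379. Vpreb2, the second gene for this part, had signals of 452 and 97.4 on the EnhDel arrays, against 1426 and 2438 on the control arrays. Its arrays stood in the same order as those of Vpreb1, to whose transcript its probe is also assigned. The log2 difference was -3.05 ± 0.82 (95% interval -5.27 to -0.83), with an adjusted p of 0.355 in limma.

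Vpreb3, a relative of the VpreB genes whose product is found with immunoglobulin chains inside the cell, had signals of 2966 and 453 on the EnhDel arrays, against 10279 and 16156 on the control arrays. The groups did not overlap, and the order of the arrays was that of Igll1. The log2 difference was -3.38 ± 0.98 (95% interval 1.68-fold to 64.2-fold lower), with limma's adjusted p at 0.381. Vpreb3 lies on chromosome 10, away from the other 3. In bulk RNA of sorted cells, fewer cells that express these genes and less RNA per cell cannot be told apart.

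**Figure D1:**
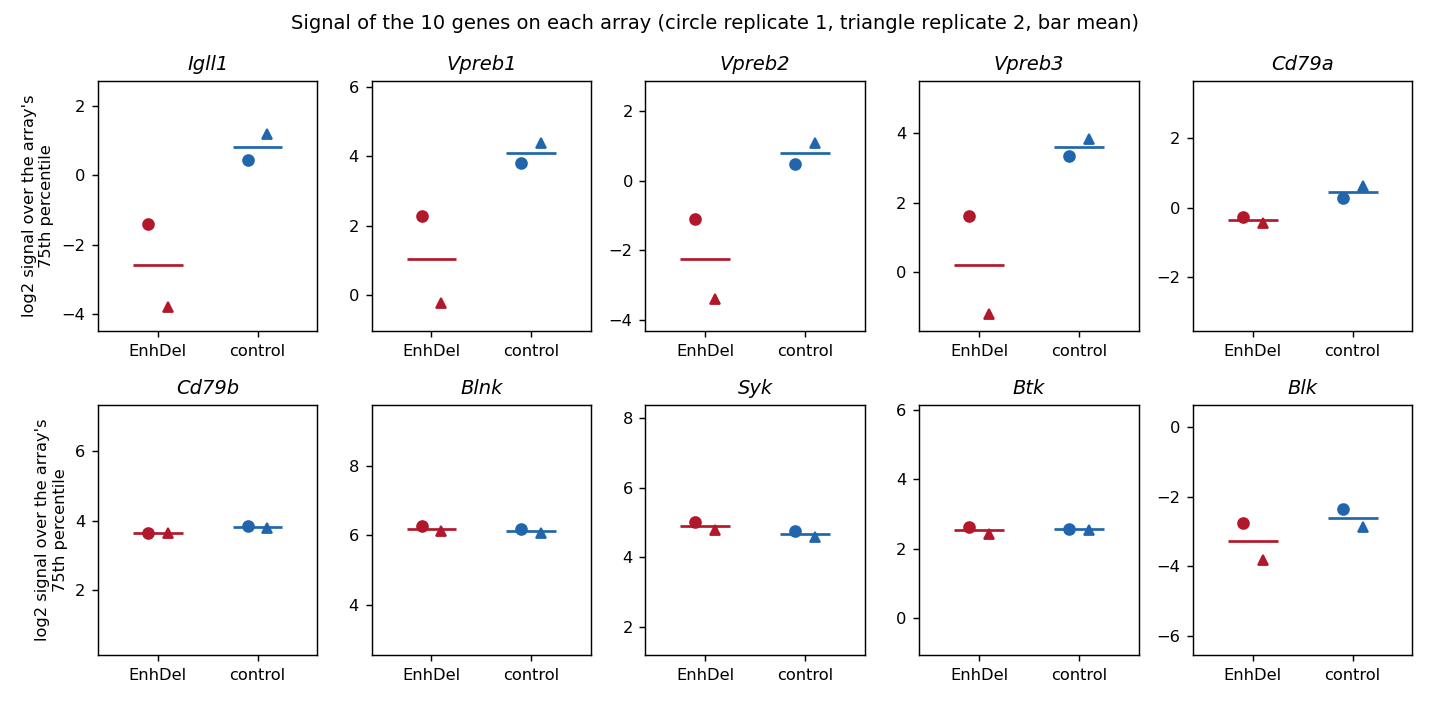
Signal of the 10 genes on each array, as log2 of the signal over the array's 75th percentile (vertical axes, all spanning the same range), with EnhDel left of control in each panel, a circle for replicate 1, a triangle for replicate 2 and a bar for the mean. Igll1, Vpreb1, Vpreb2 and Vpreb3 were lower on both EnhDel arrays, most on replicate 2, while Blnk, Syk, Btk and Cd79b differed by at most 0.24.

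The size of the difference depended on which EnhDel array was read. Set against the mean of the control arrays, the 4 genes differed by -2.22 (Igll1) to -1.81 (Vpreb1) on EnhDel replicate 1 and by -4.78 (Vpreb3) to -4.21 (Vpreb2) on EnhDel replicate 2. For Igll1 this is 4.66-fold lower on replicate 1 and 24.2-fold lower on replicate 2. Of all genes, 0.31% to 0.65% had EnhDel arrays as far apart as these 4 genes did. Without EnhDel replicate 1, limma's adjusted p of the 4 genes was 0.0164 to 0.0216, and all 4 passed 0.05, as did 16.5% of all genes tested. That fit leaves 1 EnhDel array, which is assumed to vary like the control arrays. Without EnhDel replicate 2, adjusted p was 0.0871 to 0.123 for the 4 genes, and 0.48% of all genes passed. Leaving out control replicate 1 gave log2 differences of -3.79 to -3.34 for the 4 genes, and leaving out control replicate 2 gave -3.13 to -2.75. No member passed in limma in either case, while 0% and 0.0155% of all genes did. Scaling arrays to their median called 0 members and 0.134% of all genes.

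Markers of B-lineage and other cells are given beside these values as summed signal, in multiples of the array's 75th percentile. The B-lineage sum was 185 and 135 on the EnhDel arrays, against 193 and 164 on the control arrays. Most of it came from Ly6d, a surface protein of early B cells that plasmacytoid dendritic cells also carry, with signals of 168501 and 130163 on the EnhDel arrays and 184799 and 172263 on the control arrays. The neutrophil and monocyte sum was 1.87 and 12.0 on the EnhDel arrays (7 and 8 of 9 markers well above background), against 22.8 and 26.2 on the control arrays (9 and 9 of 9). It was lowest on EnhDel replicate 1, unlike the surrogate light chain, and its marker Lyz2 was not well above background on either EnhDel array. All 10 mature B markers were well above background on every array. Their sum was 365 and 407 on the EnhDel arrays and 269 and 263 on the control arrays. H2-Ab1 and Cd74 made up most of this sum, so it mainly follows them and does not stand for mature B cells alone. H2-Ab1 had signals of 217546 and 219066 on the EnhDel arrays and 164978 and 184383 on the control arrays. The median log2 difference of the mature B list was 0.64. The T-cell sum, with 7 of 7 markers on every array, was 10.2 and 5.55 on the EnhDel arrays and 8.90 and 8.75 on the control arrays. The NK-cell sum was 15.9 and 13.5 on the EnhDel arrays (7 of 8 markers) and 16.5 and 14.3 on the control arrays (6 of 8), with Ncr1 well above background on EnhDel replicate 2 alone. Most of that sum came from Klrd1, with signals of 13314 and 10807 on the EnhDel arrays and 14797 and 14586 on the control arrays, while the list's median log2 difference was 0.69. Gzmb, a granzyme of cytotoxic cells, had 68.3 and 237 on the EnhDel arrays, against 4.54 and 5.85 on the control arrays, where it was not well above background. The plasma-cell sum, with 5 of 5 markers, was 69.9 and 58.5 on the EnhDel arrays and 61.1 and 58.0 on the control arrays. Xbp1 made up most of this sum. Log2 differences of the 5 markers ran from -1.22 (Sdc1) to 0.16 (Prdm1), with a median of 0.01. The erythroid sum was 0.83 and 1.23 on the EnhDel arrays (4 and 5 of 5 markers) and 0.22 and 0.60 on the control arrays (1 and 2 of 5). Mast-cell and basophil markers summed to 0.35 and 1.67 on the EnhDel arrays and 0.33 and 0.40 on the control arrays, with Fcer1a and Ms4a2 well above background on no array. The part of other cells in the differences was not tested.

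**Figure D2:**
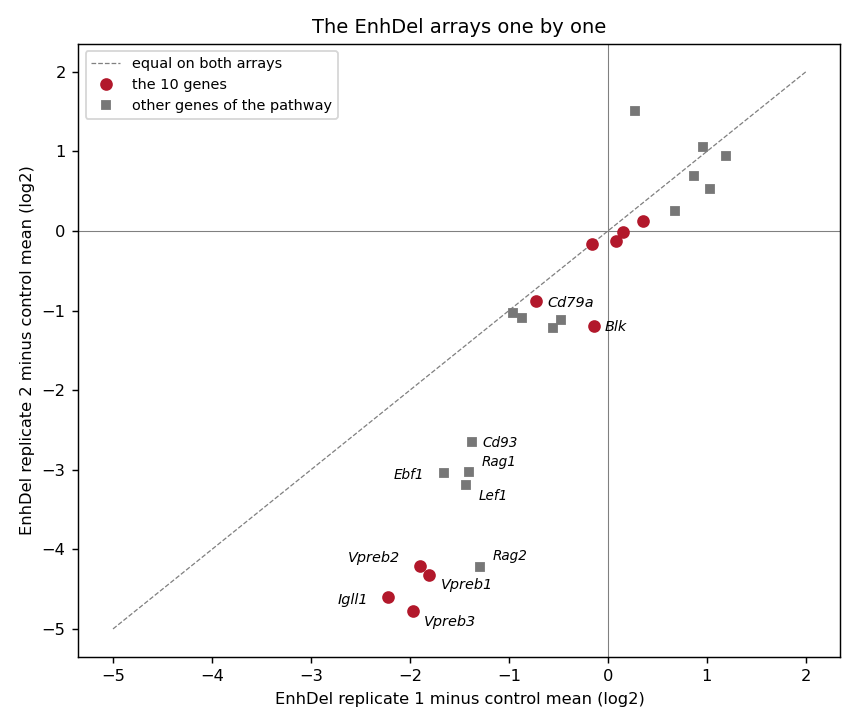
Log2 difference from the control mean on EnhDel replicate 1 (horizontal) and on EnhDel replicate 2 (vertical) for the 10 genes (red circles) and the other pathway genes named in the text (grey squares), where points on the dashed line differ equally on both arrays. The surrogate light chain genes and Vpreb3 lie near -2 on replicate 1 and below -4 on replicate 2, while Cd79a lies near the line; Rag2 was not well above background on replicate 2.

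The pair that carries the receptor's signal into the cell differed far less. Cd79a, which encodes Ig-α, had signals of 801 and 767 on the EnhDel arrays, against 1229 and 1746 on the control arrays. Both EnhDel arrays were below both control arrays and lay close together. The log2 difference was -0.80 ± 0.19, or 1.75-fold lower (95% interval 1.22-fold to 2.50-fold), with an unadjusted p of 0.0116 and an adjusted p of 0.321 in limma. A second, dimmer Cd79a probe gave -0.69. Cd79b, which encodes Ig-β, had signals of 12207 and 13087 on the EnhDel arrays, against 14490 and 15816 on the control arrays. The groups did not overlap after scaling, but the log2 difference was only -0.16 ± 0.14 (95% interval -0.55 to 0.23), with an adjusted p of 0.731 in limma. The Cd79b arrays of a group lay within 0.04 of each other, closer than the groups, and the SE comes from limma's variance, which is moderated over all genes. The difference did not pass the test.

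The adaptor and the kinases showed no common direction. Blnk, the adaptor that links Syk to its targets, had signals of 75125 and 71971 on the EnhDel arrays, against 74187 and 75743 on the control arrays. These groups overlapped after scaling, and the log2 difference was 0.07 ± 0.16 (95% interval -0.36 to 0.50; adjusted p 0.889 in limma). Syk, a kinase recruited to Ig-α and Ig-β, had signals of 31608 and 28871 on the EnhDel arrays, against 27438 and 27458 on the control arrays. Both EnhDel arrays were above both control arrays, by a log2 difference of 0.24 ± 0.17 (95% interval -0.23 to 0.70; adjusted p 0.676 in limma), and a second Syk probe gave 0.06.

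Btk, the kinase that is mutated in X-linked agammaglobulinaemia in humans, had signals of 6044 and 5632 on the EnhDel arrays, against 6001 and 6680 on the control arrays. Its groups overlapped, with a log2 difference of -0.02 ± 0.16 (95% interval -0.45 to 0.41; adjusted p 0.971 in limma) and 0.04 on a second probe. Blk, a Src-family kinase of B cells, had signals of 143 and 73.9 on the EnhDel arrays, against 198 and 155 on the control arrays. The lowest value was that of EnhDel replicate 2, and the groups overlapped after scaling. The log2 difference of Blk was -0.67 ± 0.42 (95% interval -1.80 to 0.47; adjusted p 0.632 in limma). With normexp, the direction turned for Blnk (-0.18), Syk (-0.03) and Blk (0.18), but 6 spots with extreme local background distorted that setting on EnhDel replicate 1. With those backgrounds repaired, Blnk (0.10), Syk (0.23) and Blk (-0.41) kept their direction. Btk turned under quantile normalization (0.01) and cyclic loess (0.04). The 95% intervals of all 4 include 0, and no direction is given for them.

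**Figure D3:**
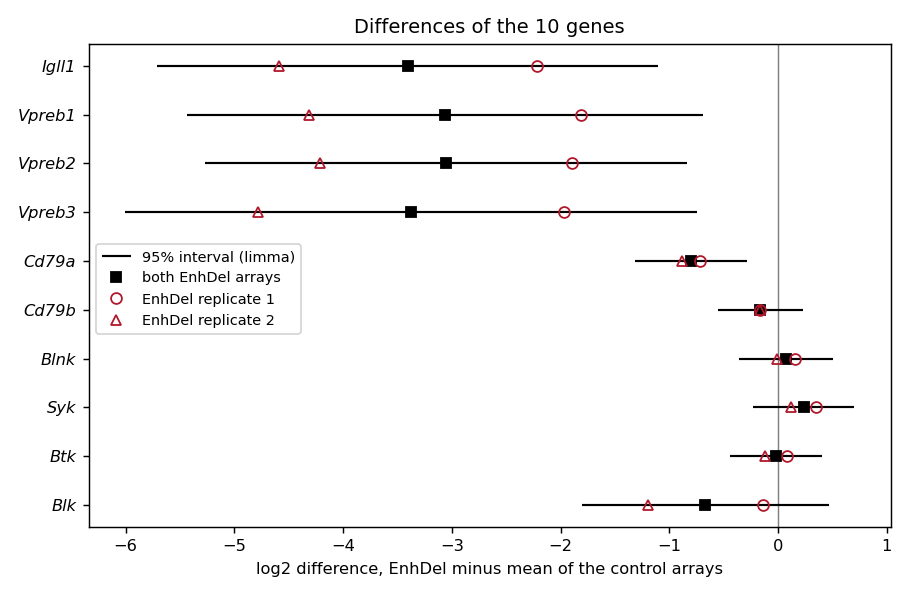
Log2 difference of each gene, EnhDel minus the mean of the control arrays (horizontal axis), as a black square with its 95% interval from limma, and each EnhDel array alone as a red circle (replicate 1) or triangle (replicate 2). The intervals of the first 5 genes lie below 0 and those of Cd79b, Blnk, Syk, Btk and Blk include 0.

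Over the 10 genes, 0 were called at 0.05 after limma's adjustment, as were 0% of all 19393 genes. Before adjustment, 2135 of all genes were under 0.05, and the smallest adjusted value among them was 0.0510. An unadjusted p under 0.05 with lower EnhDel signal was reached by 5 of the 10, against 4.17% of all genes. On 6 of the 10 both EnhDel arrays were below both control arrays, against 16.6% of all genes, and on 1 both were above, against 27.2%. A difference of at least 2-fold lower was seen for 4 of the 10, against 3.02% of all genes. These are the surrogate light chain genes and Vpreb3. Vpreb2 is in each of these counts of lower genes, though its probe does not tell it from Vpreb1. The 10 genes were chosen with earlier results of these data known, so these counts describe them and are not a test. The median log2 difference was -0.74 over the 10 genes and 0.06 over all genes tested. With 2 arrays a group, an exact permutation test of 1 gene cannot give a p below 0.333.

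**Figure D4:**
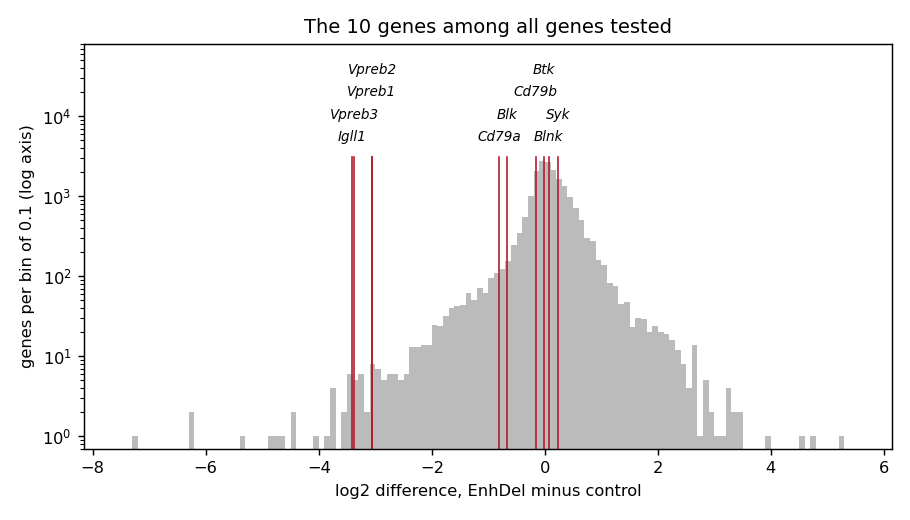
Number of genes (vertical, log axis) by log2 difference, EnhDel minus control (horizontal), for all 19393 genes tested, with the 10 genes as red lines. Igll1, Vpreb3, Vpreb1 and Vpreb2 lie in the lower tail, where 0.12% to 0.22% of all genes had a difference as low or lower, and the other 6 lie between -0.80 and 0.24.

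The authors' deposited table, whose values are log2 and rounded to 1 decimal, gave differences of the same direction for the first 6 genes. It had Igll1 at -3.1, Vpreb1 at -3.0, Vpreb2 at -2.8, Vpreb3 at -3.3, Cd79a at -0.65 and Cd79b at -0.15. In the authors' deposited table Blnk differed by 0.15, Syk by 0.20, Btk by 0 and Blk by -0.55.

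The pattern of Igll1 over the 4 arrays was compared with 12994 genes by the root mean square distance of centred log2 values, as a description. These were tested genes outside the 10 with an ordinary symbol, well above background on all arrays or all but 1. Genes named only by an accession, clone or position were not compared. Vpreb3 (0.18), Vpreb2 (0.19, on a probe that does not tell it from Vpreb1) and Vpreb1 (0.19) were closer than any of these 12994 genes. The nearest of those were Pcp4l1 (0.21), Gfra2 (0.28), Esr1 (0.29), Ttll11 (0.29) and Mmrn1 (0.29). Their signals were low on EnhDel replicate 2, and all except Gfra2 were well above background on only 1 of the 2 EnhDel arrays. Gfra2, a receptor for neurturin, had signals of 191 and 23.5 on the EnhDel arrays, against 641 and 1019 on the control arrays. All 5 depended on the background correction: with repaired normexp, Pcp4l1 differed by -1.72, Gfra2 by -2.44, Esr1 by -0.77, Ttll11 by -0.95 and Mmrn1 by -1.30, against -3.50 to -3.10 in the standard setting. Under unrepaired normexp, Pcp4l1 differed by -0.83, Gfra2 by -1.96 and Mmrn1 by -0.28, and Esr1 and Ttll11 turned direction, to 0.34 and 0.17. For the 4 genes other than Gfra2, the likeness to Igll1 rests in part on EnhDel replicate 2, where they were not well above background.

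Genes beside the surrogate light chain were taken by position, as the nearest 2 tested on either side. Around Igll1 and Vpreb1, Top3b differed by 0.04, Ppm1f by 0.01 and Dnm1l by -0.09. Fgd4 had signals of 9.82 and 2.46 on the EnhDel arrays, where it was not well above background, and 26.3 and 25.6 on the control arrays, at least 1.97-fold lower in EnhDel with an adjusted p of 0.400 in limma. Around Vpreb2, Slc25a1, Ess2, Dgcr6 and Prodh differed by 0.25, 0.04, -0.0041 and 0.24. Next to Vpreb3, Chchd10 had signals of 4491 and 4772 on the EnhDel arrays, against 9679 and 12692 on the control arrays, a difference of -1.16 with an adjusted p of 0.195 in limma. Also near Vpreb3, Mmp11 differed by -0.75, Zfp280b by -0.25 and Slc5a4a by 0.65.

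The wider pathway was read from 4 lists, of which no gene passed an adjusted p of 0.05 in limma. These lists too were chosen with earlier results of these data known, so their counts are a description and not a test. Among 25 other genes of proximal positive signalling, 1 was lower and 2 were higher with an unadjusted p under 0.05, against 4.17% lower and 6.84% higher among all genes, and the median difference was 0.20. Both EnhDel arrays were above both control arrays for 13 of the 25, against 27.2% of all genes, and below for 1, against 16.6%. The Ras activator Rasgrp1 had signals of 119 and 108 on the EnhDel arrays, against 52.0 and 64.7 on the control arrays (log2 difference 1.07 ± 0.17). Both EnhDel arrays were above both control arrays. Vav2, a signalling protein downstream of the receptor, and the adaptor Lcp2 (SLP-76, the relative of BLNK in T cells) differed by 0.78 and 0.78. Lcp2 was dim, with signals of 49.5 and 37.4 on the EnhDel arrays and 31.5 and 22.9 on the control arrays. With repaired normexp, Rasgrp1 differed by 0.66, Vav2 by 0.59 and Lcp2 by 0.33. In the authors' deposited table these were 0.65, 0.60 and 0.25, and under unrepaired normexp 1.30, 0.96 and 1.23.

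Ptprc of the gate is in the list drawn up for inhibitors of the receptor, though it is not purely an inhibitor, and also in the stage list below. Its log2 difference was 0.48, with overlapping groups. The inhibitor list held 18 genes. In limma 1 was lower and 1 higher with an unadjusted p under 0.05, and the median difference was 0.10. These counts stand against 4.17% lower and 6.84% higher among all genes. Without overlap of the groups, 6 of the 18 were higher and 1 was lower, against 27.2% higher and 16.6% lower among all genes. Dok2 and Dok3, adaptors that dampen signalling, differed in opposite directions. Dok2 had signals of 482 and 550 on the EnhDel arrays, against 272 and 277 on the control arrays (log2 difference 1.01 ± 0.15). Dok3 had signals of 215 and 197 on the EnhDel arrays, against 386 and 491 on the control arrays (-0.98 ± 0.17). Neither pair of groups overlapped. Dok3 differed by -0.37 under unrepaired normexp and by -0.83 with repaired normexp. The phosphatase Ptpn22 differed by 0.47. The inhibitory receptor Lilrb4a had signals of 247 and 621 on the EnhDel arrays, against 208 and 246 on the control arrays, a log2 difference of 0.89 that was 0.27 without EnhDel replicate 2 and 1.51 without EnhDel replicate 1.

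Transcription factors and cyclins upstream or downstream of the receptor had 20 tested members, 4 of them lower and 0 higher with an unadjusted p under 0.05, and a median of -0.15. Among all genes 4.17% were lower and 6.84% higher at that p. The groups did not overlap for 7 lower and 2 higher genes, against 16.6% and 27.2% of all genes. Pax5 was not tested, because in neither group did both arrays reach the background limit. Ebf1, which activates surrogate light chain genes in B-cell precursors, had signals of 146 and 59.5 on the EnhDel arrays, against 392 and 659 on the control arrays. The log2 difference of Ebf1 was -2.35 ± 0.53, with EnhDel replicate 2 lowest, and limma's adjusted p was 0.304. It was -1.13 under unrepaired normexp, -1.75 with repaired normexp, -1.65 without EnhDel replicate 2 and -3.05 without EnhDel replicate 1. Lef1, a factor of the Wnt pathway needed for normal B-cell precursors, had signals of 610 and 192 on the EnhDel arrays, against 1421 and 2342 on the control arrays (-2.31 ± 0.64; -1.43 without EnhDel replicate 2 and -3.20 without EnhDel replicate 1). For both, the arrays stood in the same order as for Igll1. Sox4, another factor of early B cells, differed by -0.80. Myc, which drives growth, differed by -0.99 in the standard setting, by 0.03 under unrepaired normexp and by -0.67 with repaired normexp.

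The heavy chain, recombination and stage list had 11 tested members, 4 of them lower and 0 higher with an unadjusted p under 0.05, and a median of -0.17. The shares over all genes at that p are again 4.17% and 6.84%. The groups did not overlap for 6 lower and 2 higher genes, where all genes had 16.6% and 27.2%. Ighm, the heavy chain that pairs with the surrogate light chain, was not matched to a probe and is not analysed here, and Enpep was too dim to test. Rag1 and Rag2 encode the recombinase that assembles immunoglobulin genes. Rag1 had signals of 441 and 154 on the EnhDel arrays, against 1034 and 1612 on the control arrays (log2 difference -2.21 ± 0.59). The difference of Rag1 was -1.40 without EnhDel replicate 2, -3.02 without EnhDel replicate 1 and -1.40 in the authors' deposited table. Rag2 had signals of 85.9 and 12.1 on the EnhDel arrays, the second not well above background, against 201 and 272 on the control arrays. The log2 difference of Rag2 on EnhDel replicate 1, where it was measured above background, was -1.29, and it was -1.34 over both arrays with repaired normexp, -0.55 with unrepaired normexp and -0.50 in the authors' deposited table, so its size is not settled. Cd93, a marker of early B cells, had signals of 2583 and 1147 on the EnhDel arrays, against 6780 and 8137 on the control arrays (-2.01 ± 0.46; -1.38 without EnhDel replicate 2 and -2.65 without EnhDel replicate 1). All 3 had their lowest signal on EnhDel replicate 2, like the surrogate light chain genes. Bst1, known as BP-3, differed by -0.88. The 15 genes named from the 4 lists were picked for small p in limma on these same arrays. They do not stand for their lists.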

How the data were processed

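Total RNA of 4 samples was hybridised in 1 colour (Cy3) to Agilent arrays, 1 array per sample. The authors' scanner files, made with Agilent Feature Extraction per the file headers, give each spot's intensity. The authors also deposited a log2 table whose method is not given in the sources used here. It tracked the mean of a gene's probes, with an SD of 0.161 to 0.166 around it over 6419 genes, against 1.03 to 1.09 around the brightest probe. The members and gene lists were chosen with earlier results of these data known.

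Control and flagged spots (126 to 162 per array) were left out and 0 probes were saturated. Processed signals became log2 values minus each array's 75th percentile. Probes were named by accession through RefSeq (26581 of 39429, 2892 with a newer symbol). A gene was its brightest probe, and was tested if well above background on both arrays of a group. The EnhDel and control arrays were set against each other in limma 3.58.1 (R 4.3.3; lmFit, eBayes, Benjamini-Hochberg at 0.05), a fit first tested on simulated data. The text names the 10 genes, the 4 smallest p of each pathway list, the 5 genes most like Igll1, Cebpa, and, chosen by position or as markers, other genes; 1 gene that this rule takes is not reported here. A signal of 12.2 to 14.4 was the lowest called well above background. The number of arrays limits the precision. Alternatives were other background corrections, normalizations, filters and probe rules, a replicate block, an intensity trend, leaving out single arrays and the authors' table.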

Additional observations from a re-analysis of the deposited data

How the results depend on the processing

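The 4 genes Igll1, Vpreb1, Vpreb2 and Vpreb3 were lower in EnhDel under each alternative run on all 4 arrays, by -3.58 to -2.39, with limma's adjusted p from 0.274 to 0.513, so none of these settings made them pass. Across single arrays left out, the number of members passing ran from 0 to 4 and the number of genes from 0 to 3199; the cause was not tested. Both maxima came without EnhDel replicate 1. Omitting EnhDel replicate 2 called 93 genes, and omitting control replicate 2 or 1 called 3 or 0. Median scaling called 26 genes and 0 members, and shifted the median of all genes to -0.12, and normexp to 0.20. Of 153 values of single members, 138 kept direction and side of the threshold, 4 passed it, 10 turned and 1 (Btk in the authors' deposited table) was exactly 0. Normexp, in which the local background of 6 spots distorted EnhDel replicate 1, turned Blnk (-0.18), Syk (-0.034), Blk (0.18), Myc (0.025), Esr1 (0.34) and Ttll11 (0.17), and with those backgrounds repaired it turned none of these. Blnk also turned with median scaling (-0.11), which moves every gene alike by -0.18, and over single arrays left out it ran from -0.010 (without EnhDel replicate 1) to 0.15. Btk turned with quantile normalization (0.013), cyclic loess (0.036), the mean of its probes (0.013) and its second probe (0.045), and over single arrays left out it ran from -0.12 to 0.081 (without EnhDel replicate 2). The replicate numbers gave no pairing, since deviations of same-numbered arrays correlated at -0.024 over genes, and with the replicate number as a block 0 genes and 0 members passed, which changed no call. Having 2 arrays a group limits the precision of every value.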
